A study of Homo sapiens with 2 samples.

Results

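Metallothioneins were examined here through 6 genes, MT1E, MT1F, MT1G, MT1M, MT1X and MT2A, found by symbol among the 36601 genes of the files. They are nuclear genes of chromosome 16, and their names carry no dash, unlike the mitochondrial genes whose symbols begin with MT-. Each was read in 14140 cells of the RWPE-ERG-mAKT library and 9967 cells of the RWPE1 library, which are the barcodes with more than 2500 detected genes and less than 7.5% of their unique molecular identifiers (UMIs) on mitochondrial genes. Those cells were 81.5% of 17355 and 79.7% of 12504 deposited barcodes.

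The study compared single cells of 2 cultures by droplet sequencing of transcript 3' ends. RWPE-ERG-mAKT cells are RWPE1 cells that express exogenous ERG, an ETS-family transcription factor, together with AKT made constantly active by a myristoyl tag (mAKT). RWPE1 cells, an immortalized line of normal human prostate epithelium grown in keratinocyte serum-free medium, carried the empty vector as control. The transgenes were delivered by retrovirus, with ERG driven by the HNRNPA2B1 promoter, and the sources used here do not say whether either culture was a clone. With 1 library per condition no test between conditions was possible. The intervals below are 95% intervals for counting error only, and a difference between the libraries cannot be told apart from a difference between any 2 cultures.

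Metallothioneins are very small proteins rich in cysteine, and the cysteine thiols bind zinc, copper and cadmium. They buffer free zinc and take up toxic metals and oxidants. MT2A and the MT1 genes are switched on by metals through the factor MTF1, which binds short metal response elements in their promoters, and glucocorticoids also induce MT2A. MT3 is known mainly from brain and MT4 from stratified squamous epithelium.

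The coding sequences of the 4 most abundant members are printed to show how alike the family is, since reads can only be assigned where the copies differ. They are GENCODE version 29 sequences on GRCh38, from the first to the last coding base of transcript MT2A-201 (chr16:56608656-56609354), MT1X-201 (chr16:56682541-56684049), MT1E-201 (chr16:56625852-56626971) and MT1F-201 (chr16:56658059-56659164), all on the plus strand with the introns left out. Capitals mark the in-frame cysteine codons, TGC or TGT.
MT2A: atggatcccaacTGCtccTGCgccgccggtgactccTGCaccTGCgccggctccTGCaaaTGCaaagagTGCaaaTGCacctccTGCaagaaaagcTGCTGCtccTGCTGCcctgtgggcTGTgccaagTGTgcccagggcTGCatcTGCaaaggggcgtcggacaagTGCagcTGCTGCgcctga
MT1X: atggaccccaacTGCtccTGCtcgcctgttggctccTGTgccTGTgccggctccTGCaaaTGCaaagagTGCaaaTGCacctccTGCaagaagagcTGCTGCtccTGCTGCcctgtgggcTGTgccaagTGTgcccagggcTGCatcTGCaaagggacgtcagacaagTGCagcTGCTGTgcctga
MT1E: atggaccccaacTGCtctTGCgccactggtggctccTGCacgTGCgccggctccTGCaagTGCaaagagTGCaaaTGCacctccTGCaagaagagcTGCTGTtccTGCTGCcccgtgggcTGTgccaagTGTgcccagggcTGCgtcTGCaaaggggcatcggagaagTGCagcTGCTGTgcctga
MT1F: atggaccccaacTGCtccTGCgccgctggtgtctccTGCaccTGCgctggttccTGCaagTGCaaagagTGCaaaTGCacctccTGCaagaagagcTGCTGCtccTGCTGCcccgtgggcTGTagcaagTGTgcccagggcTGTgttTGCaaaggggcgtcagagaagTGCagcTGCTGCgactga

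In each of the 4 genes 20 of 61 codons before the stop encode cysteine, 32.8%. Coding identity between any pair of the 6 members was between 88.7% (MT1F with MT1X) and 93.7% (MT1G with MT2A). The reads came from the 3' ends. Likeness there was measured by windows, a measure unlike coding identity. The last 300 bases of each transcript also include part of the coding sequence. Of the 251 windows of 50 bases in the last 300 bases of each transcript, the share absent from every annotated transcript of 20 other metallothionein genes was 90.8% for MT1F, 88.0% for MT1E, 85.7% for MT2A, 80.9% for MT1M, 74.5% for MT1X and 71.3% for MT1G. A part of the reads could therefore match more than 1 copy, most for MT1G and MT1X, and how such reads were shared out is not given in the sources used here.

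The RefSeq promoter table (GRCh38.p14) held 2 of the 6 members, MT2A and MT1X. The 250 bases before each RefSeq start are printed because metal response elements lie there. Across cells these 2 genes were the pair that varied together most closely in RWPE-ERG-mAKT. In RWPE1 the closest pair was MT1E with MT2A. The windows are chr16:56608334-56608583 for MT2A and chr16:56682220-56682469 for MT1X, both on the plus strand. The GENCODE transcripts start further upstream, MT2A-201 at 56608199 and MT1X-201 at 56682424. By that annotation the MT2A window lies within the transcript and the MT1X window overlaps its start. Capitals mark every match to the core of the element, TGCACNC or TGCGCNC, on either strand, where N is any base.
MT2A: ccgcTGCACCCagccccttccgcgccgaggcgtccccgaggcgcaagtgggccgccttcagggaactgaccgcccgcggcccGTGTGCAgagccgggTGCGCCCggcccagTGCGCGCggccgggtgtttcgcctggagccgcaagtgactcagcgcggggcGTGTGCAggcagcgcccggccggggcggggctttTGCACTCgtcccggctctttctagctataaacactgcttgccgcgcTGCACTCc
MT1X: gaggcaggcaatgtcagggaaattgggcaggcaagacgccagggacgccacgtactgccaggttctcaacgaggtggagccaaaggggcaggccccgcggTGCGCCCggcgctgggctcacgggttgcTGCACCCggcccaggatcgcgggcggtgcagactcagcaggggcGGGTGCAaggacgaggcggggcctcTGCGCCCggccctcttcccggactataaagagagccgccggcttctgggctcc

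The core matched 7 times in the MT2A window, 5 on the plus strand and 2 on the minus strand, and 4 times in the MT1X window, 3 on the plus strand and 1 on the minus strand. The 2 core spellings do not overlap each other in either window. Of 35116 RefSeq promoters of the same 250 bases, 24.8% held at least 1 match, 130 (0.370%) held at least 4 and 11 (0.0313%) held at least 7. Among the other metallothionein genes of the table, MT1H had 8 matches, MT1B 3 and MT4 3.

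The kept cells held 225121037 UMIs in RWPE-ERG-mAKT (median 13601 per cell) and 192789925 in RWPE1 (median 16972). Mitochondrial genes took a median of 2.73% of UMIs in RWPE-ERG-mAKT cells and 5.44% in RWPE1 cells. KRT5 and KRT14, keratins of basal epithelium, were at 2008 and 2191 CPM (UMIs per 1000000 UMIs of the library) in RWPE-ERG-mAKT and at 2081 and 1600 CPM in RWPE1, and TP63, a basal transcription factor, was at 61.7 and 142 CPM. The luminal keratins KRT8 (329 CPM in RWPE-ERG-mAKT and 450 CPM in RWPE1) and KRT18 (542 and 1198 CPM) were also present, and the luminal secretory gene KLK3 had 0 UMIs in RWPE-ERG-mAKT and 1 UMI in RWPE1. ERG itself was at 20.8 CPM in RWPE-ERG-mAKT against 1.44 CPM in RWPE1. The libraries shared 55 barcodes, 0.317% of those of RWPE-ERG-mAKT and 0.440% of those of RWPE1.

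MT2A was the most abundant member in both libraries, and it was lower in RWPE-ERG-mAKT. It reached 2307 CPM there (519343 UMIs, 75th gene by level), against 4709 CPM in RWPE1 (907917 UMIs, 23rd gene), a log2 ratio of -1.03 (-1.03 to -1.02). MT1X, the member with the smallest relative difference among the abundant ones, was at 584 CPM in RWPE-ERG-mAKT and 679 CPM in RWPE1, a log2 ratio of -0.22 (-0.23 to -0.21). MT1E showed the widest gap, with 213 CPM in RWPE-ERG-mAKT against 508 CPM in RWPE1 and a log2 ratio of -1.26 (-1.27 to -1.24). MT1F went the other way, although from a low level. It was at 11.8 CPM in RWPE-ERG-mAKT (2660 UMIs) and 5.58 CPM in RWPE1 (1075 UMIs), a log2 ratio of 1.08 (0.98 to 1.19).

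The last 2 members were barely present. MT1G had 143 UMIs in RWPE-ERG-mAKT (0.635 CPM) and 142 UMIs in RWPE1 (0.737 CPM), and the interval of its log2 ratio, -0.56 to 0.13, spanned 0. MT1M had 6 UMIs in RWPE-ERG-mAKT and 12 UMIs in RWPE1, with an interval of -2.92 to 0.30 that spanned 0 as well. The order of levels was the same in both libraries, MT2A, MT1X, MT1E, MT1F, MT1G and then MT1M, and the counting intervals of neighbours in that order did not overlap. Because a 3' library counts each transcript at its end, these levels need no scaling by length.

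**Figure D1:**
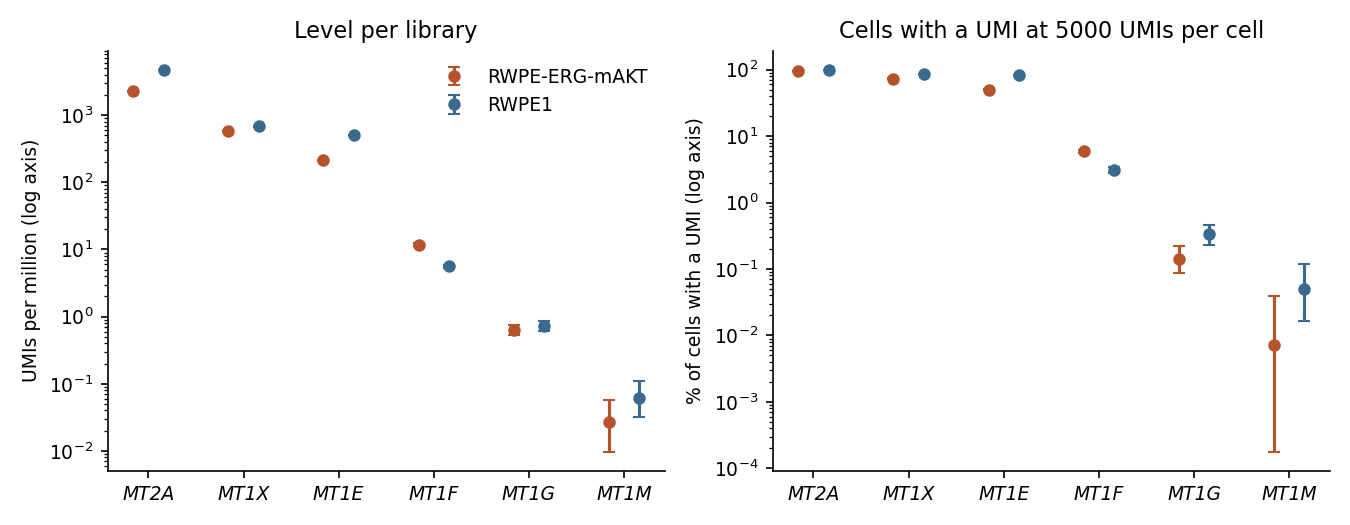
Levels of the 6 metallothionein genes in CPM (left, log axis) and the percent of cells with at least 1 UMI after thinning every cell to 5000 UMIs (right, log axis), with 95% counting intervals and 1 library per condition. MT2A and MT1E sit lower in RWPE-ERG-mAKT on both axes (2307 against 4709 CPM and 213 against 508 CPM), MT1X is close in CPM (584 against 679), and MT1F is higher (11.8 against 5.58 CPM).

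A background was set by all 9533 genes with at least 10 CPM in either library, of which 12.9% were more than 2-fold lower in RWPE-ERG-mAKT, 8.09% more than 2-fold higher and 20.9% past 2-fold either way. Of the 6 members MT1E, MT1X and MT2A reached that level in both libraries, and MT1E and MT2A were more than 2-fold lower while MT1X was within 2-fold. MT1F reached it only in RWPE-ERG-mAKT, where it was more than 2-fold higher, so it could enter this set only by being higher there. The median log2 ratio over all 9533 genes was -0.08. In their ranking from lowest to highest ratio MT1E stood at percentile 7.99, MT2A at 12.2 and MT1X at 42.7. MT2A lay close to the 2-fold line, and with median-of-ratios scaling, which shifts every log2 ratio by 0.04, it was at -0.99 and only MT1E stayed below it.

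Seen cell by cell at a common depth of 5000 UMIs (14134 RWPE-ERG-mAKT cells and 9967 RWPE1 cells), MT2A was detected in nearly every cell. It had a UMI in 94.6% of RWPE-ERG-mAKT cells (94.2 to 94.9) and in 99.2% of RWPE1 cells (98.96 to 99.33). MT1X was detected in 73.3% of RWPE-ERG-mAKT cells (72.6 to 74.0) and 86.5% of RWPE1 cells (85.8 to 87.2), so its detection differed more than its summed level did. MT1E was detected in 49.6% of RWPE-ERG-mAKT cells (48.7 to 50.4) against 81.8% of RWPE1 cells (81.0 to 82.5), the largest gap, 32.2 percentage points lower. MT1F was found in 5.87% of RWPE-ERG-mAKT cells (5.49 to 6.27) and in 3.11% of RWPE1 cells (2.78 to 3.47). Before thinning, MT1F had a UMI in 14.8% and 9.88% of cells and MT1E in 72.5% and 96.5%, in RWPE-ERG-mAKT and RWPE1 in that order. MT1G was seen in 0.142% of RWPE-ERG-mAKT cells and 0.331% of RWPE1 cells, and MT1M in 1 RWPE-ERG-mAKT cell and 5 RWPE1 cells.

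No cell type that lacks metallothioneins was present to set the level that free RNA gives. The closest measure was the cells with none of the 6 genes detected at 5000 UMIs. They were 412 RWPE-ERG-mAKT cells, 2.91% (2.64 to 3.21), and 29 RWPE1 cells, 0.291% (0.195 to 0.418). The share of UMIs that free RNA contributed was not tested.

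Summed over the 6 genes, metallothioneins were at 3117 CPM in RWPE-ERG-mAKT and 5903 CPM in RWPE1, a log2 ratio of -0.92 (-0.93 to -0.92). At equal depth the mean was 17.5 UMIs per cell in RWPE-ERG-mAKT and 30.5 in RWPE1, with medians of 11 and 25. The lowest 10% of cells had at most 2 metallothionein UMIs in RWPE-ERG-mAKT and at most 8 in RWPE1. The 90th percentiles were 41 and 60 UMIs, and the 99th percentiles were 91 and 104 UMIs. The highest cell of all was an RWPE-ERG-mAKT cell with 356 UMIs, against a highest of 203 in RWPE1. More than 100 metallothionein UMIs were found in 92 RWPE-ERG-mAKT cells (0.651%) and 130 RWPE1 cells (1.30%).

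RWPE-ERG-mAKT cells were thus lower on average and more unequal. The coefficient of variation of the sum was 1.13 in RWPE-ERG-mAKT and 0.719 in RWPE1, and the 10% of cells with the most metallothionein held 36.1% of its UMIs in RWPE-ERG-mAKT and 25.9% in RWPE1. The variance over the mean (Fano factor) was 17.7 for MT2A in RWPE-ERG-mAKT, rank 6 of 1639 genes with a mean of at least 0.5 UMI, and 14.9 in RWPE1, rank 3 of 1564 genes. MT1X ranked 15 in RWPE-ERG-mAKT and 32 in RWPE1, with Fano factors of 7.24 and 3.396. MT1E ranked 46 and 52, with 3.29 and 2.59. The median gene had a Fano factor of 1.13 in RWPE-ERG-mAKT and 1.11 in RWPE1. At equal relative spread this factor grows with the mean, and the ranks were not adjusted for level. MT2A averaged 13.0 UMIs per cell in RWPE-ERG-mAKT and 24.4 in RWPE1.

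**Figure D2:**
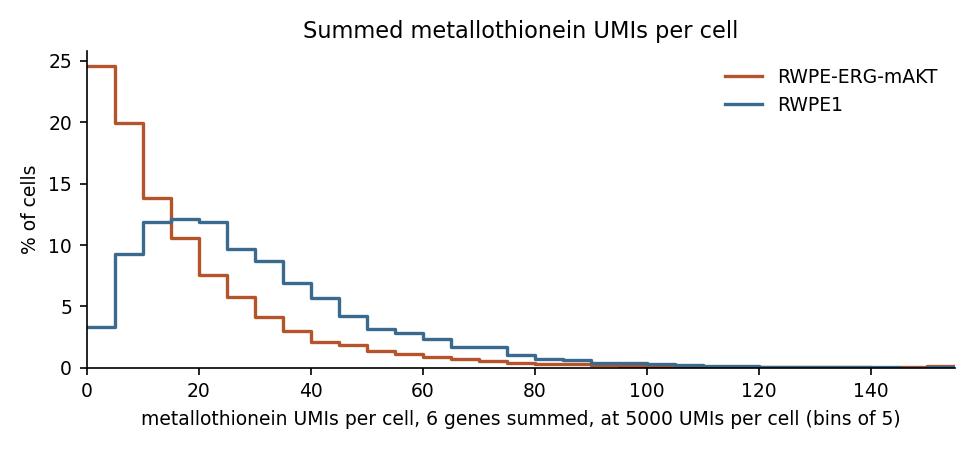
Percent of cells in bins of 5 metallothionein UMIs, the 6 genes summed, after thinning each cell to 5000 UMIs, with 14134 RWPE-ERG-mAKT cells and 9967 RWPE1 cells and all cells from 150 UMIs up in the last bin. The RWPE-ERG-mAKT line is highest in the first bin, 0 to 4 UMIs, with 24.6% of cells, and its median of 11 lies below the RWPE1 median of 25.

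The makeup of the sum also differed. MT2A supplied 74.0% of metallothionein UMIs in RWPE-ERG-mAKT and 79.8% in RWPE1, and MT1E supplied 6.82% and 8.61%. MT1X made up 18.8% in RWPE-ERG-mAKT against 11.5% in RWPE1, and MT1F 0.379% against 0.0945%. MT1E, MT1X and MT2A were all detected in 40.8% of RWPE-ERG-mAKT cells and 72.2% of RWPE1 cells. A cell held on average 2.23 detected members in RWPE-ERG-mAKT and 2.71 in RWPE1, a difference of -0.475.

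The abundant members varied together from cell to cell. Correlations are given as descriptions over the cells of each library, whose UMIs all come from 1 library at 1 thinned depth. Between MT1X and MT2A Pearson's r of log2(UMIs + 1) was 0.61 in RWPE-ERG-mAKT and 0.38 in RWPE1. For MT1E with MT2A it was 0.50 and 0.41, and for MT1E with MT1X 0.39 and 0.26, RWPE-ERG-mAKT given before RWPE1. All 3 pairs were higher in RWPE-ERG-mAKT. MT1F, with few UMIs, reached 0.17 with MT1X and 0.14 with MT2A in RWPE-ERG-mAKT and 0.05 with each in RWPE1. Over all 15 pairs, most of which involve the nearly absent MT1G or MT1M, the mean r was 0.139 in RWPE-ERG-mAKT and 0.0810 in RWPE1.

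**Figure D3:**
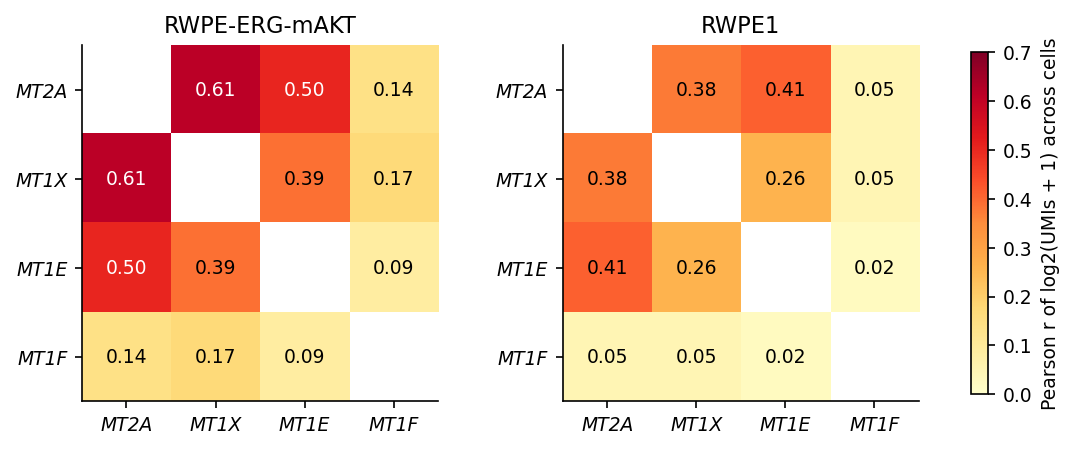
Pearson's r of log2(UMIs + 1) between the 4 most abundant metallothionein genes across cells thinned to 5000 UMIs (colour and printed value), in RWPE-ERG-mAKT on the left and RWPE1 on the right. The pair of MT1X and MT2A is highest in RWPE-ERG-mAKT, at 0.61 against 0.38 in RWPE1.

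Detection followed the same pattern. In RWPE-ERG-mAKT, MT1X was detected in 83.3% of cells with a UMI of MT1E (82.4 to 84.1) and in 63.5% of cells without one (62.4 to 64.6). In RWPE1 the shares were 88.4% (87.7 to 89.1) with MT1E and 77.9% (75.9 to 79.8) without it. Cells with a UMI of MT1F had a mean of 23.0 MT2A UMIs in RWPE-ERG-mAKT, against 12.4 in cells without it, and the RWPE1 means were 29.8 with MT1F and 24.3 without it.

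When cells were grouped by their MT2A UMIs, the other members climbed with MT2A in both libraries. MT1X averaged 0.929, 2.35, 4.86, 8.92 and 16.5 UMIs in RWPE-ERG-mAKT cells with 0 to 4, 5 to 14, 15 to 29, 30 to 59 and at least 60 MT2A UMIs. The same groups of RWPE1 cells averaged 1.71, 2.30, 3.199, 4.55 and 6.98 MT1X UMIs. MT1X was thus lower in RWPE-ERG-mAKT in the lowest group and higher in the 3 highest groups. The groups were not matched exactly, with mean MT2A UMIs of 1.99, 8.79, 20.5, 40.2 and 80.3 in RWPE-ERG-mAKT and 2.44, 9.56, 21.3, 40.7 and 76.1 in RWPE1. MT1E behaved differently. It averaged 0.321 UMIs in the lowest and 5.02 in the highest MT2A group of RWPE-ERG-mAKT, against 1.02 and 5.10 in RWPE1, so the libraries met at the top. MT1F was detected in 2.93% of the lowest and 24.0% of the highest MT2A group in RWPE-ERG-mAKT, against 1.28% and 5.72% in RWPE1. The highest group held 250 RWPE-ERG-mAKT cells (1.77%) and 577 RWPE1 cells (5.79%).

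**Figure D4:**
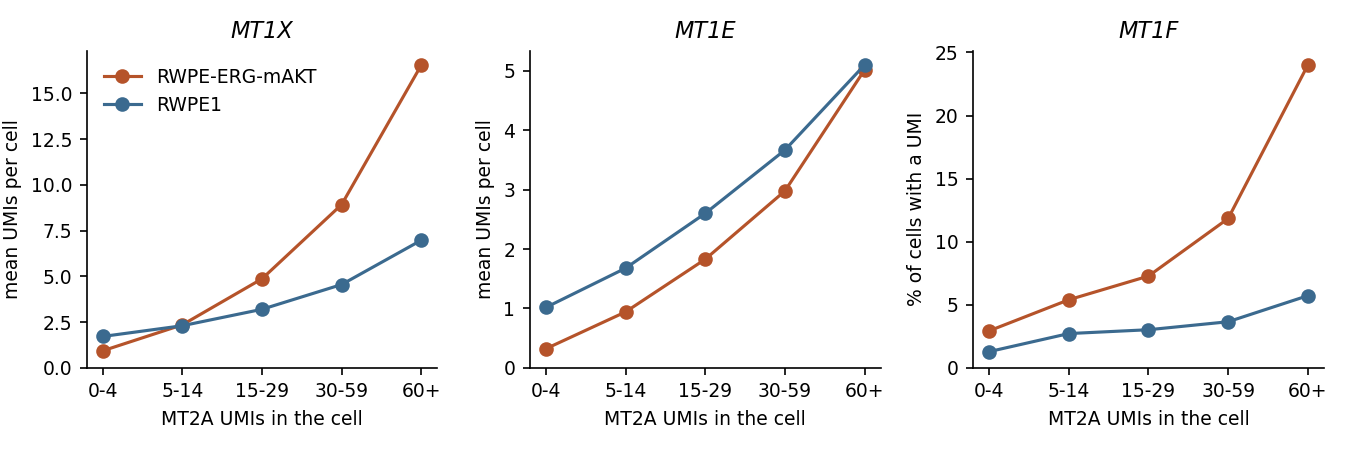
Mean MT1X UMIs (left), mean MT1E UMIs (middle) and percent of cells with an MT1F UMI (right) in cells grouped by their MT2A UMIs, after thinning to 5000 UMIs. In cells with at least 60 MT2A UMIs, MT1X averages 16.5 UMIs in RWPE-ERG-mAKT against 6.98 in RWPE1, while MT1E averages 5.02 against 5.10.

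MT1G was nearly equal in its total UMIs but not in how they were spread. In RWPE-ERG-mAKT its 143 UMIs came from 46 cells, and 7 cells with at least 5 MT1G UMIs held 64.3% of them. In RWPE1 its 142 UMIs came from 126 cells, of which 2 had 5 UMIs each. The RWPE-ERG-mAKT cell highest in MT1G held 40 MT1G UMIs together with 26 of MT1F, 110 of MT1E, 64 of MT1X and 456 of MT2A among 14603 UMIs, and metallothioneins made up 4.77% of its RNA. The 7 cells had a median of 143 metallothionein UMIs per 10000, beside 22.7 over all RWPE-ERG-mAKT cells, but they were not alike. A pair of them with 10 MT1G UMIs each had metallothionein shares of only 0.285% and 0.0820%, and the lower of these held 6 MT2A UMIs and 0 of MT1E, MT1F and MT1X. MT1G shares the most 3' sequence with other copies, and how many of its UMIs in these cells belong to them was not tested.

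The RWPE-ERG-mAKT cells were shallower, so the ratios were also taken between cells of like depth. Within bins of 5000 to 10000, 10000 to 15000, 15000 to 20000, 20000 to 30000 and over 30000 UMIs, metallothioneins were at 4578, 3587, 3066, 2663 and 1995 CPM in RWPE-ERG-mAKT and at 6815, 6847, 5884, 5413 and 5593 CPM in RWPE1. Levels were lower in deeper cells, more so in RWPE-ERG-mAKT, and the log2 ratio was -0.57 in the shallowest bin and -1.49 in the deepest. MT2A was lower in RWPE-ERG-mAKT in all 5 bins (-0.68 to -1.58), as was MT1E (-0.85 to -1.78), and MT1F was higher in all 5 (0.60 to 1.09). MT1X changed sides, with a log2 ratio of 0.09 (0.04 to 0.14) in the shallowest bin and -0.92 (-0.95 to -0.89) in the deepest. Across cells, r between the thinned metallothionein sum and the log of a cell's UMIs was -0.20 in RWPE-ERG-mAKT and -0.07 in RWPE1, and with its percent of mitochondrial UMIs 0.06 and 0.02.

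**Figure D5:**
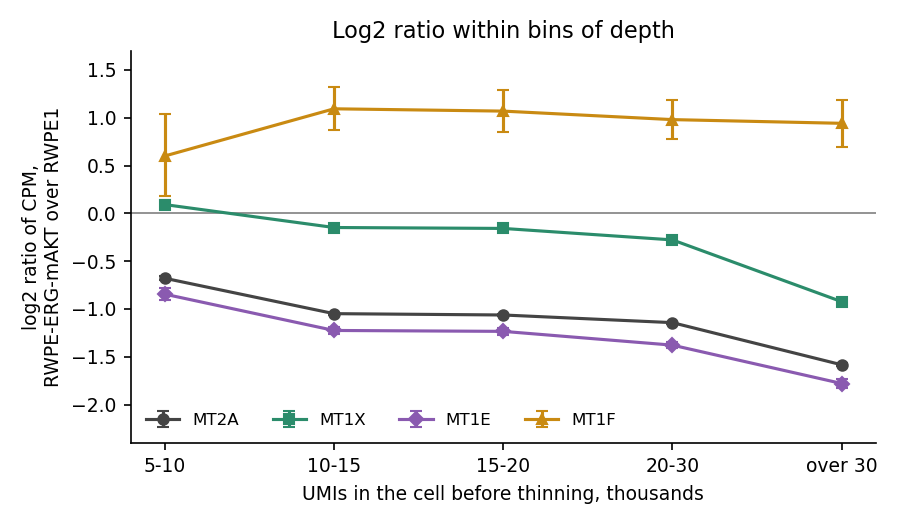
Log2 ratio of CPM, RWPE-ERG-mAKT over RWPE1, for 4 metallothionein genes within 5 bins of UMIs per cell, with 95% counting intervals. MT2A and MT1E lie below 0 and MT1F above 0 in every bin, and MT1X passes from 0.09 in the shallowest bin to -0.92 in the deepest.

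The study's methods state a range of 200 to 2500 genes per cell. Their sentence on mitochondrial RNA says that cells below 7.5% were filtered out, and it was read here as keeping them. Together these limits left 2775 RWPE-ERG-mAKT and 362 RWPE1 barcodes, and the gaps were smaller there. MT2A was at 4321 CPM in RWPE-ERG-mAKT and 6017 CPM in RWPE1 (log2 ratio -0.48) and MT1E at 375 and 545 CPM (-0.54), both within 2-fold. MT1X was higher in RWPE-ERG-mAKT, at 972 against 870 CPM, and MT1F was at 19.4 against 6.87 CPM. MT1M had 0 UMIs in RWPE-ERG-mAKT and 13 UMIs in RWPE1, or 14.9 CPM, above MT1F and MT1G in that library. Of the 26 MT1M UMIs over all RWPE1 barcodes, 8 lay in barcodes with transcripts known from brain, described at the end. How many of those 8 are among the 13 was not tested. In cells with more than 2500 genes and at least 7.5% mitochondrial UMIs, of which RWPE-ERG-mAKT had 107 and RWPE1 1575, all 3 abundant members were more than 2-fold lower (MT2A -1.67, MT1E -1.67, MT1X -1.25). MT1F was at 0.55 there, with an interval of -0.70 to 1.57 that spanned 0.

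Of the other metallothionein genes 6 were listed in the files, and none reached 10 CPM. MT3 had 26 UMIs in RWPE-ERG-mAKT and 16 in RWPE1. MT1B had 13 UMIs in RWPE-ERG-mAKT and 1 in RWPE1, a log2 ratio of 3.48 with a wide interval of 0.74 to 8.89. MT1A had 0 UMIs in RWPE-ERG-mAKT, which with a limit of 3 counts allows up to 0.0133 CPM, and 16 UMIs in RWPE1 (0.0830 CPM). MT1H, MT1HL1 and MT4 had at most 2 UMIs in either library.

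The 6 members lie within 76.0 kb of chromosome 16, from 56608199 to 56684196 on GRCh38, with MT1G on the minus strand and the others on the plus strand. Of the other annotated genes within 500 kb on either side that reached 10 CPM, 5 are given here. Among these 5 genes 0 differed by more than 2-fold, against 20.9% of all genes. Their log2 ratios ranged between -0.64 (NUP93, a nuclear pore subunit, 40.8 CPM in RWPE-ERG-mAKT and 63.6 CPM in RWPE1) and 0.45 (OGFOD1, a ribosomal protein hydroxylase, 46.3 and 33.9 CPM). NUDT21, a cleavage factor of mRNA 3' ends, was at -0.50, FAM192A at -0.26 and HERPUD1, a part of endoplasmic-reticulum-associated degradation, at -0.02.

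MTF1, the zinc-sensing factor of metallothionein promoters, was at 19.4 CPM in RWPE-ERG-mAKT and 17.7 CPM in RWPE1. Of 11 listed genes for MTF1 and the zinc exporters, 5 reached 10 CPM and 0 passed 2-fold, with a median log2 ratio of -0.10 beside -0.08 over all genes. The most abundant exporters were SLC30A5 (50.02 CPM in RWPE-ERG-mAKT and 53.7 CPM in RWPE1) and SLC30A9 (46.3 and 36.3 CPM), and SLC30A1, the exporter of the plasma membrane and an MTF1 target, was below the limit at 8.12 and 5.47 CPM. Of 11 zinc importers past the limit 3 passed 2-fold, against 20.9% of all genes. SLC39A8 was more than 2-fold higher (log2 ratio 3.18), and SLC39A4 (-1.77) and SLC39A11 (-1.06) were more than 2-fold lower. SLC39A4 was at 11.7 CPM in RWPE-ERG-mAKT against 40.0 CPM in RWPE1. Among 9 copper-handling genes only SCO2, an assembly factor of cytochrome oxidase, was more than 2-fold higher (log2 ratio 1.27) and 0 were lower. Over all genes 8.09% were higher and 12.9% lower by that measure. The superoxide dismutase SOD1 was at 390 CPM in RWPE-ERG-mAKT and 306 CPM in RWPE1, and the copper chaperone ATOX1 at 279 and 269 CPM.

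Other signals known to induce metallothioneins were followed through 5 lists of genes. In 4 of these lists more genes were more than 2-fold higher than lower in RWPE-ERG-mAKT. Over all 9533 genes, 8.09% were more than 2-fold higher and 12.9% more than 2-fold lower. Of 10 glucocorticoid-response genes 4 were more than 2-fold higher and 0 lower (median log2 ratio 0.16). Among the 4 were the phosphatase DUSP1 (199 CPM in RWPE-ERG-mAKT against 54.7 CPM in RWPE1) and the transcription factor CEBPD (188 against 61.2 CPM). FKBP5, the most abundant gene of the list, was within 2-fold (493 and 407 CPM, log2 ratio 0.27). The receptor gene itself, NR3C1, was at 122 CPM in RWPE-ERG-mAKT and 151 CPM in RWPE1. Of 12 genes of oxidative and electrophile stress 2 were higher and 2 lower past 2-fold. The higher were SRXN1 (log2 ratio 1.12) and SQSTM1 (1.05), and the lower were GCLC (-2.24) and SLC7A11 (-1.91). The ferritin heavy chain FTH1 was within 2-fold, at 4971 CPM in RWPE-ERG-mAKT and 2583 CPM in RWPE1 (0.94). Heat shock gave 3 higher and 0 lower of 11, with the small chaperone HSPB1 at 1619 CPM in RWPE-ERG-mAKT and 399 CPM in RWPE1. HSP90AA1 (log2 ratio 0.29), HSPE1 (0.27) and HSPD1 (-0.38), also abundant in that list, were within 2-fold. Hypoxia genes gave 5 higher and 0 lower of 11, and acute-phase genes 3 higher and 1 lower of 6. The r of each list's summed UMIs with the metallothionein sum was 0.13 at its largest in size (heat shock, RWPE1).

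Immediate early genes were the list most tied to metallothionein within RWPE-ERG-mAKT. Of 9 genes 5 were more than 2-fold higher and 0 lower, beside 8.09% higher and 12.9% lower over all genes. The list's summed UMIs had an r of 0.26 with the metallothionein sum in RWPE-ERG-mAKT and -0.06 in RWPE1. Cells in the lowest tertile of the list had a mean of 13.1 metallothionein UMIs and those in the highest 23.7 in RWPE-ERG-mAKT, against 31.6 and 29.6 in RWPE1. IER2 alone (652 CPM in RWPE-ERG-mAKT and 57.8 CPM in RWPE1) had r values of 0.27 and -0.05, and the 8 other genes without it 0.16 and -0.05. IER2 followed MT2A and MT1X alike in RWPE-ERG-mAKT (0.26 with each) and MT1E less (0.10).

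Among 5792 genes with at least 20 CPM in both libraries, the median r with the metallothionein sum was -0.01 in each. The gene whose lower r of the 2 libraries was highest was KRT14, a keratin of basal epithelium, at 0.22 in RWPE-ERG-mAKT and 0.28 in RWPE1. After it came CAV1, which coats caveolae (0.17 and 0.19), the ribosomal protein gene RPS14 (0.22 and 0.16) and ATP5F1E, a subunit of ATP synthase (0.16 and 0.17), followed by RPL34, RPL35A, the glutathione transferase GSTP1 and RACK1. At the opposite end were PDE4D (-0.12 and -0.14), the cell cycle inhibitor CDKN1A (-0.12 and -0.14), the autophagy receptor SQSTM1 (-0.11 and -0.13) and S100A9 (-0.11 and -0.11).

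Other genes were high in 1 library and not in the other, and these were chosen after their values were seen. The highest in RWPE1 were TMSB10, which binds actin monomers, at 0.43 (0.08 in RWPE-ERG-mAKT), and S100A2 at 0.42 (-0.03 in RWPE-ERG-mAKT). In RWPE1 both went with MT2A (0.44 each) much more than with MT1X (0.15 for TMSB10 and 0.19 for S100A2). The highest in RWPE-ERG-mAKT were RPS21, a ribosomal protein gene, at 0.32 (0.09 in RWPE1), and PMEPA1, a membrane-bound inhibitor of TGF-beta signalling, at 0.28 (0.05 in RWPE1).

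By cell state, the 9 basal genes summed had an r of 0.14 with metallothionein in RWPE-ERG-mAKT and 0.24 in RWPE1. Single genes of the list differed. KRT14 was at 0.22 and 0.28, ITGB4 at 0.19 and 0.11, COL17A1 at 0.10 and 0.10 and KRT5 at 0.04 and 0.17. TP63 was at 0.03 and -0.01, KRT15 at 0.01 and -0.07 and LAMB3 at 0.009 and 0.003. ITGA6 was at -0.03 and 0.07 and DST at -0.19 and -0.03. The 7 genes without KRT5 and KRT14 summed to an r of -0.02 in RWPE-ERG-mAKT and 0.06 in RWPE1. DST was the most abundant of these 7, at 342 CPM in RWPE-ERG-mAKT and 253 CPM in RWPE1. Cells in the lowest and highest tertile of the whole list averaged 13.9 and 21.2 metallothionein UMIs in RWPE-ERG-mAKT and 26.6 and 36.6 in RWPE1. Luminal genes had r values of -0.05 and -0.19 and tertile means of 18.9 and 14.8 UMIs in RWPE-ERG-mAKT and 35.7 and 26.4 in RWPE1. Squamous differentiation genes had r values of -0.12 and -0.18, S phase genes -0.02 and -0.01, and G2/M genes 0.11 and 0.01. Markers of endothelium, immune cells and choroid plexus had 0 genes at 10 CPM in either library, and of 6 fibroblast genes 1 did, DCN at 23.1 CPM in RWPE-ERG-mAKT and 0.228 CPM in RWPE1. DCN had an r of -0.02 with metallothionein in both.

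Within RWPE-ERG-mAKT, cells with an ERG UMI at equal depth differed little from the rest. ERG was at only 20.8 CPM, so a cell without an ERG UMI may still express it. This split therefore does not separate cells by ERG expression, and whether metallothionein level goes with ERG was not tested. The 1322 cells with one averaged 16.5 metallothionein UMIs (median 10) and the 12812 without one 17.6 (median 11), beside a standard deviation of 19.6 and 19.8 UMIs over cells. MT1E was detected in 46.1% of cells with an ERG UMI and 49.9% of those without, and MT2A in 94.6% of each.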

How the data were processed

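The deposited matrices held raw counts of UMIs per gene and barcode, made by the authors with Cell Ranger 7.1.0 on hg38 (per the labels and the study's methods). They were used as deposited, with no ambient RNA correction. No doublet caller was run. Cells with more than 2500 genes and less than 7.5% MT- UMIs were kept, because the stated range of 200 to 2500 genes removes most deposited barcodes. CPM is a gene's UMIs over kept cells per 1000000 UMIs. Its interval is exact Poisson, that of a log2 ratio exact conditional, and that of a share Clopper-Pearson. Cells were thinned without replacement to 5000 UMIs (seed 1), which left out 6 RWPE-ERG-mAKT cells and 0 RWPE1 cells. Likeness is Pearson's r of log2(UMIs + 1). Coding sequences were aligned with Biopython 1.88. Python 3.11.15, numpy 2.4.6, scipy 1.17.1 and pandas 2.3.3 were used, and the scripts were tested on simulated counts.

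The members and gene lists were chosen with earlier results of these data known. Named were the 6 members, other metallothioneins with at least 10 UMIs, up to 4 genes per list with the highest CPM, the 8 genes most and 4 least like the members' sum in both libraries, and neighbours within 500 kb with at least 10 CPM, of which 1 is not reported here. Any other gene named was chosen after its values were seen. Alternatives changed the cell filter, depth limits, scaling, thinning and correlation.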

Additional observations from a re-analysis of the deposited data

How the results depend on the processing

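No paired analysis was possible because each condition had 1 library. The direction of the summed log2 ratio (-0.92) was kept under all 9 alternatives. It was -0.39 in cells with 200 to 2500 genes, -1.60 in cells with at least 7.5% MT- UMIs, -0.86 without the 5% deepest cells, -0.88 with median-of-ratios scaling, -0.80 with each cell scaled to its own total, -0.56 without MT2A and -0.96 without the 1% of cells highest in metallothioneins. The difference in members detected (-0.475) was -0.344 in cells with 200 to 2500 genes, -0.574 in cells with at least 7.5% MT- UMIs, -0.435 with no MT- limit and -0.373 at 10000 UMIs. The mean pairwise r in RWPE-ERG-mAKT (0.139) was 0.166 at 10000 UMIs and 0.173 with no thinning. In RWPE1 (0.0810) it was 0.0569 at 2000 UMIs and 0.108 with no thinning. Over MT1E, MT1X and MT2A only, an alternative added after seeing the data, it was 0.503 in RWPE-ERG-mAKT and 0.348 in RWPE1. MT1X turned to 0.16 in cells with 200 to 2500 genes. MT2A (-0.48) and MT1E (-0.54) were within 2-fold there, and MT1F was at 1.50. In cells with at least 7.5% MT- UMIs MT1F was at 0.55, with an interval that spanned 0. MT2A was also within 2-fold without the 5% deepest cells (-0.97), with median-of-ratios scaling (-0.99) and with each cell scaled to its own total (-0.91). The causes were not tested. The mean r could not be computed in either library in cells with 200 to 2500 genes or with at least 7.5% MT- UMIs, nor in RWPE-ERG-mAKT at 2000 UMIs or with thinning seed 2, where a member had no UMI. Depth limits MT1G and MT1M, whose ratios had intervals that spanned 0.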

Other observations

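MT3 and MT1M were higher per UMI in a few mostly small RWPE1 barcodes that also carried transcripts of genes known from brain. Most RWPE1 UMIs of both genes lay in other barcodes, and RWPE-ERG-mAKT had 29 MT3 UMIs without any such barcode. Of the deposited RWPE1 barcodes 53 had at least 2 UMIs summed over TYROBP, AIF1, TTR, ENPP2, OTX2 and SOSTDC1, genes known from microglia or choroid plexus, and 0 of the RWPE-ERG-mAKT barcodes did. Their median was 617 UMIs, and 5 of the 53 were among the kept cells. MT3 had 15 UMIs in 11 of these barcodes, 81.8 CPM (45.8 to 135), against 19 UMIs or 0.0875 CPM in the other 12451 RWPE1 barcodes. MT1M had 8 UMIs in 8 of them, 43.6 CPM (18.8 to 85.9), against 18 UMIs or 0.0829 CPM in the others. MT2A was at 5560 CPM in the 53 barcodes and 4661 CPM in the others. That level is pooled over 183454 UMIs, which include those of the 5 kept cells, each with at least 5104 UMIs. MT2A had a UMI in 28 of the 53 barcodes, and its level in the small ones alone was not tested. The metallothionein genes had no part in choosing these barcodes, and where they came from was not tested. Without them the log2 ratios of MT2A, MT1E, MT1X and MT1F between the libraries were the same to 2 decimals.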
